A study of Homo sapiens with 4 samples.

Results

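Aldehyde dehydrogenases and stem-like marker genes were followed in HCC1954 cells, an established human HER2-amplified breast cancer line, after depletion of the palmitoyltransferase ZDHHC15. The 10 genes were chosen by symbol from the table of 58735 genes: the aldehyde dehydrogenases ALDH1A1, ALDH1A3, ALDH3A1 and ALDH3B1, the surface markers CD44, CD24 and PROM1, and the transcription factors SOX2, SOX9 and KLF4. Gene positions are on GRCh38 (hg38). All 10 were found, and 9 of them were expressed highly enough to be tested. The shCON group (2 samples) carried a scrambled hairpin and the shZDHHC15 group (2 samples) a hairpin against ZDHHC15, both from GIPZ lentiviral vectors, in otherwise untreated cells. The labels speak both of stably depleted cells and of harvest 36 h after transfection, and the methods mention screening of monoclonal cultures, so it is not known whether each group was 1 clone. Nothing says that the samples of a group came from separate cultures, and the p-values measure the spread between these samples, which may be technical.

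Aldehyde dehydrogenases oxidise aldehydes to carboxylic acids. The ALDH1A enzymes turn retinaldehyde into retinoic acid, the ligand of the nuclear retinoic acid receptors, while ALDH3A1 and ALDH3B1 act on medium and long chain or lipid-derived aldehydes. In breast cancer, cells with high aldehyde dehydrogenase activity, and cells with much CD44 and little CD24 on their surface, are known as populations enriched in tumor-initiating capacity, and PROM1 (CD133), SOX2, SOX9 and KLF4 are used as further markers of stem-like or progenitor states.

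The counts on genes summed to between 17560982 and 19118704 per sample. ZDHHC15 itself had 17617 and 15716 counts in shCON and 0 in both shZDHHC15 samples. A loss of every count from 965 and 930 CPM is more than a partial depletion, and its cause was not tested. The cell line's labelled origin was checked with 8 epithelial and HER2 amplicon markers, all of which were detected, at a summed 19440 to 20969 CPM (counts scaled to library size by TMM) in shCON and 11722 to 11942 CPM in shZDHHC15 cells, a lower level that came mainly with KRT7, KRT8 and KRT18. KRT19, on the same list, was higher, at 27.0 and 25.7 CPM in shZDHHC15 against 18.8 and 20.1 CPM in shCON cells. The leukocyte markers summed to between 0.888 and 2.04 CPM, and CD3E and MS4A1 had 0 counts in every sample. The 6 fibroblast markers summed to between 5.81 and 11.5 CPM, with LUM at 0. The 4 endothelial markers summed to 57.0 and 57.1 CPM in shCON and to 101 and 107 CPM in shZDHHC15 cells, carried by CDH5 and PECAM1. KDR, also an endothelial marker, went the other way, from 8.71 and 7.16 CPM in shCON to 5.79 and 4.43 CPM in shZDHHC15 cells. These marker sums moved with the groups, and their part in the results below was not tested. In bulk RNA, fewer cells with a transcript and less transcript per cell cannot be told apart.

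The stretches of genome before the start sites of 4 members are shown to set the 2 members with the largest rise, SOX2 and ALDH1A1, beside 2 that fell, CD24 and KLF4. Each holds the 250 bases before a RefSeq start site on GRCh38.p14, written 5′ to 3′ on the gene's own strand, and at most 3 of these bases lie in an annotated exon of the gene. Capitals mark matches to the GC box GGGCGG or the CCAAT box CCAAT on either strand, where matches may overlap.
SOX2 (chr3:181711675-181711924, plus strand): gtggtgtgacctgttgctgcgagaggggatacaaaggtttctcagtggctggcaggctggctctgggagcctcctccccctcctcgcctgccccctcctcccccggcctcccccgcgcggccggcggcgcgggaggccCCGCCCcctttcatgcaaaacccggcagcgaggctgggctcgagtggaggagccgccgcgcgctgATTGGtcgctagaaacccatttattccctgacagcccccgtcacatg
ALDH1A1 (chr9:72953054-72953303, minus strand): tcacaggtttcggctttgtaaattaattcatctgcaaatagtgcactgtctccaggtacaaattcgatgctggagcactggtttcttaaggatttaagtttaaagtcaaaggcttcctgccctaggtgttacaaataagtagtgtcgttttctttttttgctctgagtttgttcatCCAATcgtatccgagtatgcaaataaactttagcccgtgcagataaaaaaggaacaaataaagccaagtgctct
CD24 (chr6:106975628-106975877, minus strand): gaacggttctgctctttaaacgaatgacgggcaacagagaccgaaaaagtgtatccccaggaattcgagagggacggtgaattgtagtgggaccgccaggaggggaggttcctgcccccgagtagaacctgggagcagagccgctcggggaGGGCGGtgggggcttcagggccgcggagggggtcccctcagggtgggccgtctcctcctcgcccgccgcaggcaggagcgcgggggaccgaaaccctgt
KLF4 (chr9:107489770-107490019, minus strand): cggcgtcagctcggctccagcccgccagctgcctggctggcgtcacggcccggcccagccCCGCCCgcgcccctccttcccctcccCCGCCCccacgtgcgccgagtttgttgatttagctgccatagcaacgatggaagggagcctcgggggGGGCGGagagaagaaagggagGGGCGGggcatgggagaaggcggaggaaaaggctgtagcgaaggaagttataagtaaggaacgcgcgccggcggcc
ALDH1A1 stood apart with a GC content of 38.4% and no GC box, against 68.8% for SOX2, 65.6% for CD24 and 69.2% for KLF4. SOX2 had a CCAAT match at position -47 and ALDH1A1 at position -74, counted back from the start site. The window of ALDH1A3, which fell, lies within an annotated exon of the gene and is not shown. It had a GC content of 82.4%, 6 GC box matches and a CCAAT match at position -71. Windows of a downstream CD24 start and of a PROM1 start, also not shown, had a CCAAT match at -35 and -53. Over the 14 windows listed for 8 members, 8 held a GC box and 5 a CCAAT box, against 42.6% and 32% of all 35116 windows of this length. The letters GGAATG, read by TEAD factors, were found in 1 of the 14 windows (a downstream CD24 start; 11.9% of all windows) and the AP-1 letters TGANTCA in 1 (a PROM1 start; 6.57%). The letters AGGTCA, read by nuclear receptors, were in 2 of the 14 windows (12.1% of all), one before CD44 and one before SOX2. None of the 14 held TATAAA, the letters of a core promoter element, which 10.7% of all windows hold at any position on either strand. The letters ACAATG, read by SOX factors and present in 9.29% of all windows, were also in 0 of the 14. Several windows belong to the same gene, and these counts were not tested against the shares of all windows. RefSeq windows for ALDH3A1 and SOX9 were not used here.

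The members fell into abundant and scarce genes. Per kilobase of annotated gene length (RPKM), the order in shCON cells was CD24 at 275 ± 5.51, ALDH1A3 at 182 ± 7.79, SOX9 at 67.9 ± 0.199, CD44 at 47.5 ± 3.29, KLF4 at 21.6 ± 0.0304 and ALDH3B1 at 1.92 ± 0.0586 (SD, n = 2). ALDH1A1 (0.160 RPKM), PROM1 (0.129) and SOX2 (0.101) followed as neighbours whose sample values overlapped, and ALDH3A1 was last (0.0210). In shZDHHC15 cells the first 6 places held the same genes in the same order, although SOX9 (52.6 ± 0.526) and CD44 (49.5 ± 3.88) then overlapped. SOX2 moved ahead of ALDH1A1 and PROM1, with 1.10 ± 0.159 against 1.06 ± 0.0784 and 0.536 ± 0.139 RPKM, and SOX2 and ALDH1A1 overlapped each other. This order depends on the annotated gene lengths. Before division by length, ALDH1A3 (1049 CPM) lay above CD24 (850 CPM) in shCON cells, and CD44 (475 CPM) above SOX9 (267 CPM). An SD of 2 samples is itself uncertain, so the small SDs of SOX9 and KLF4 in shCON need not mean a narrow spread.

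**Figure D1:**
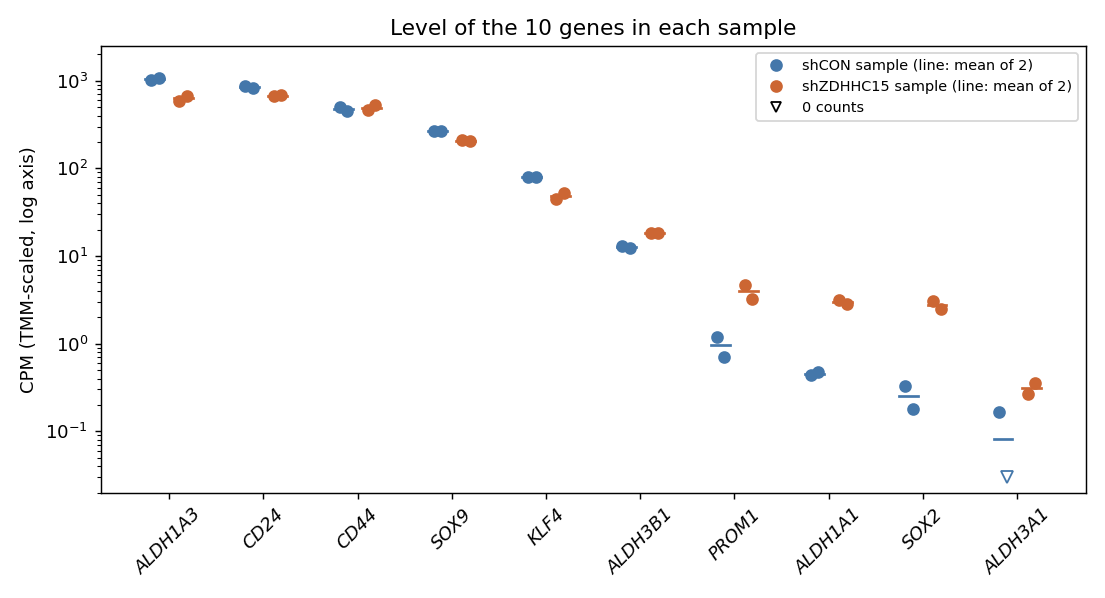
Level of each of the 10 genes in each sample, in TMM-scaled CPM on a log axis, with shCON samples in blue, shZDHHC15 samples in orange and short lines for the mean of 2 samples. ALDH1A3, CD24, SOX9 and KLF4 sit lower and ALDH3B1, PROM1, ALDH1A1 and SOX2 higher in the shZDHHC15 samples, CD44 overlaps, and the triangle marks the 0 counts of ALDH3A1 in 1 shCON sample.

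Of the 9 tested members, 4 were higher and 4 lower in shZDHHC15 than in shCON cells by edgeR's quasi-likelihood test with an adjusted p below 0.05. Over all 15817 tested genes, 42.0% were called, 21.7% higher and 20.3% lower, so calls were common throughout the transcriptome. SOX2 and ALDH1A1 entered the test only through their counts in shZDHHC15 cells, so the number of members called is given as a description. With a log2 fold change beyond 1 also required, 3 members (SOX2, ALDH1A1 and PROM1) were higher and 0 lower, against 7.51% and 3.79% of all tested genes (11.3% in all). Where each sample had to reach 10 counts, SOX2 and ALDH1A1 were not tested and 2 members remained higher. The smallest two-sided p of an exact permutation test between 2 and 2 samples is 0.333, so the calls rest on a spread shared among genes. Groups without overlap are described gene by gene below, and the share of all genes without overlap is not given here.

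Among the aldehyde dehydrogenases, the abundant retinaldehyde dehydrogenase gene ALDH1A3 fell. ALDH1A3 (ENSG00000184254, chromosome 15, 100877714 to 100916626) had 18568 and 18254 counts in shCON against 10880 and 13227 in shZDHHC15 samples. Both shZDHHC15 samples lay below both shCON samples. Levels of 1049 ± 45 and 628 ± 63.1 CPM (SD, n = 2) correspond to a log2 fold change of -0.74 with an SE of 0.0931 and an adjusted p of 1.98e-05. The antisense gene AC015712.2 overlaps 1585 exon bases of ALDH1A3 and itself had 880 and 670 counts in shCON and 447 and 601 in shZDHHC15 cells. Reads of the 2 genes cannot be told apart without strand, and whether strand was used is not given in the sources used here.

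ALDH1A1, the paralog most often tied to aldehyde dehydrogenase activity in stem-like cells, was scarce and rose. ALDH1A1 (ENSG00000165092, chromosome 9, 72900662 to 73080442) had 8 counts in each shCON sample and 59 and 56 in shZDHHC15 cells, with no overlap. The log2 fold change was 2.70 (standard error 0.390, adjusted p = 6.99e-05), which is 6.52-fold with a 95% interval of 3.66 to 11.6. Even so, the ratio of ALDH1A3 to ALDH1A1 per gene length was 91.0 and 117 in the shZDHHC15 samples, compared with 1146 and 1126 in the shCON samples. ALDH1A3 thus made up 98.5% and 99% of the summed ALDH1A level in shZDHHC15 samples, and 99.8% in both shCON samples. The summed level of ALDH1A1, ALDH1A2 and ALDH1A3 was 177 and 188 RPKM in shCON and 103 and 118 RPKM in shZDHHC15 samples.

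ALDH3B1, which encodes a membrane-bound enzyme for lipid-derived aldehydes, was modestly higher. ALDH3B1 (ENSG00000006534, chromosome 11, 68008578 to 68029282) had 237 and 210 counts in shCON and 339 and 363 in shZDHHC15 samples. The shZDHHC15 samples were both above the shCON samples, with a log2 fold change of 0.53 with an SE of 0.140 and an adjusted p of 0.00747. ALDH3A1 (ENSG00000108602, chromosome 17, 19737984 to 19748943), an enzyme of corneal and gastric epithelium, had 3 and 0 counts in shCON and 5 and 7 in shZDHHC15 samples, too few for the test. The ratio of its summed counts was 3.67, with a 95% counting interval of 0.991 to 20.3 that includes no difference. Without shCON replicate 2, which had 0 counts, its log2 ratio was 0.92 in place of 1.88. Such intervals, and the limit of 3 counts that a count of 0 allows (0.153 to 0.178 CPM here), cover counting error only.

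The family as a whole moved in both directions. Of the 15 other aldehyde dehydrogenase genes, 11 were tested, and 3 were higher and 2 lower (45.5%, beside the 42.0% of all tested genes), with a median log2 fold change of 0.07 against 0.02 for all genes. ALDH3B2, a neighbour of ALDH3B1 on chromosome 11, rose from 38 and 38 counts to 434 and 291 counts, a log2 fold change of 3.13 with an SE of 0.259 and an adjusted p of 2.87e-07. ALDH3A2, the fatty aldehyde dehydrogenase, rose from 1037 and 942 to 1779 and 1630 counts (log2 fold change 0.66, adjusted p = 0.000167). Both genes lay higher in each shZDHHC15 sample than in either shCON sample.

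ALDH1B1, a mitochondrial enzyme, fell from 1558 and 1518 to 542 and 650 counts (log2 fold change -1.49, standard error 0.110, adjusted p = 8.20e-08), which is a larger fold than that of ALDH1A3. ALDH4A1, which acts in proline breakdown and shares exons with AL080251.1, was lower by a log2 fold change of -0.42 (adjusted p = 0.0139), a call lost without shZDHHC15 replicate 1 (-0.33, adjusted p = 0.157). ALDH5A1, the succinate semialdehyde dehydrogenase, was higher by 0.36 (adjusted p = 0.0497), which 6 of the 12 alternatives did not call. Because ALDH1A3 is so abundant, its share of the summed RPKM of the 19 family genes went from 62.7% and 63.2% in shCON to 48.4% and 53.5% in shZDHHC15 samples. ALDH1B1 moved from the second to the fifth place in the family.

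**Figure D2:**
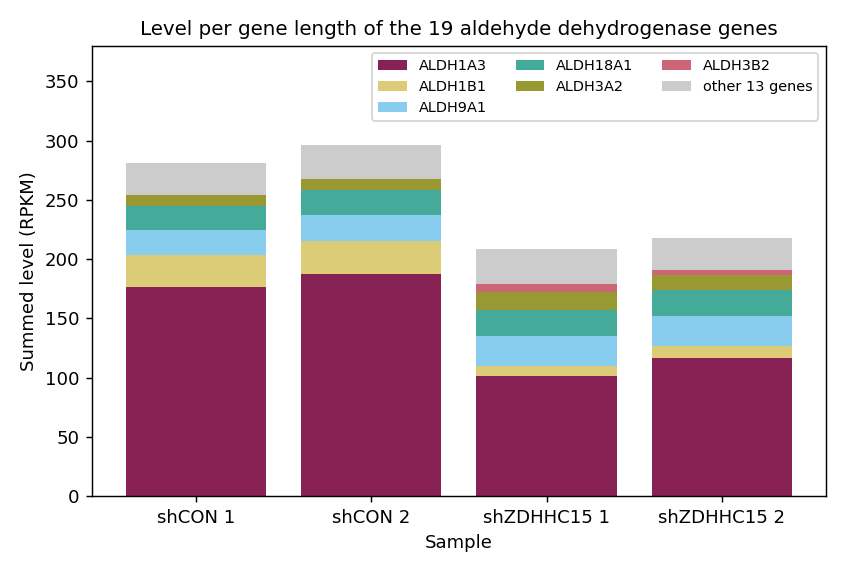
Stacked bars of the RPKM of the 19 aldehyde dehydrogenase genes in each of the 4 samples, with the 6 named genes in color and the other 13 in grey. The summed height is 281 and 296 RPKM in shCON and 209 and 218 RPKM in shZDHHC15 samples, and the ALDH1A3 part shrinks most.

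**Figure D3:**
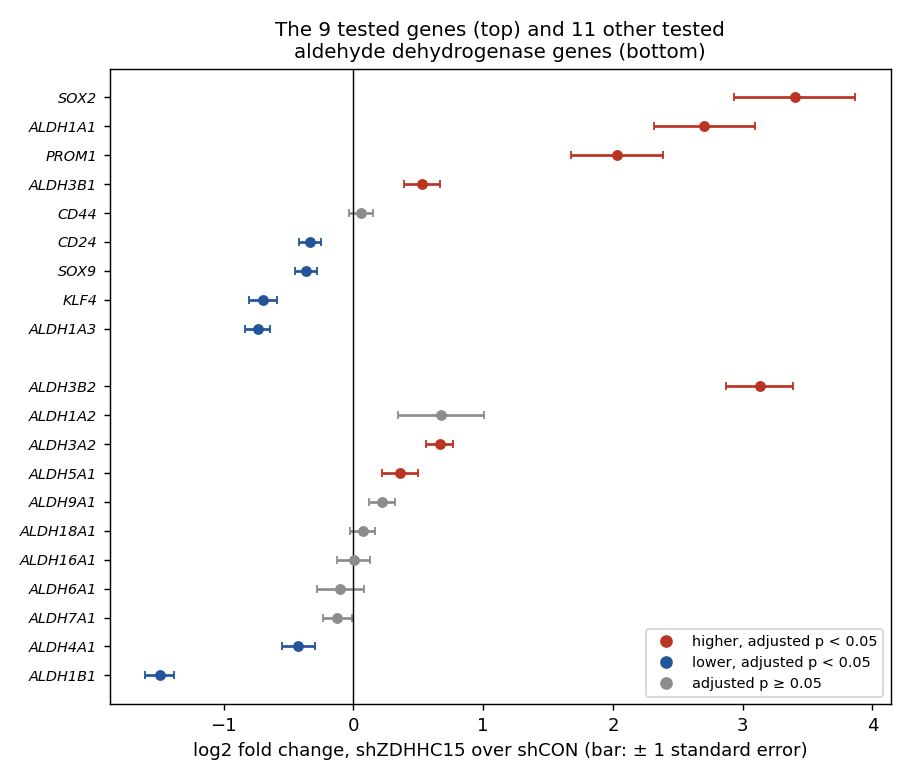
Log2 fold change (shZDHHC15 over shCON) with 1 standard error to each side for the 9 tested members (top) and the 11 other tested aldehyde dehydrogenase genes (bottom), in red or blue for an adjusted p below 0.05 and grey otherwise. SOX2, ALDH1A1, PROM1 and ALDH3B2 lie at 2.03 or above, and ALDH1B1 is lowest at -1.49.

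CD44 and CD24, the pair of surface proteins that defines one stem-like breast cancer population, did not move together. CD44 (ENSG00000026508, chromosome 11, 35138870 to 35232402), the hyaluronan receptor, had 9106 and 7638 counts in shCON and 8727 and 10282 in shZDHHC15 samples, and the groups overlapped. Its log2 fold change of 0.06 with an SE of 0.0931 and an adjusted p of 0.641 had an interval of -0.14 to 0.26, or 0.908-fold to 1.20-fold. The sign turned without shCON replicate 2 (-0.02) or without shZDHHC15 replicate 2 (-0.03).

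CD24 (ENSG00000272398, chromosome 6, 106969831 to 106975627), a small glycosylphosphatidylinositol-anchored mucin-like protein, had 15744 and 14159 counts in shCON and 12349 and 13520 in shZDHHC15 samples. Scaled to library size, both shZDHHC15 samples were below both shCON samples, and the level fell from 850 ± 17.1 to 675 ± 18 CPM (SD, n = 2). The log2 fold change was -0.33 (standard error 0.0843, adjusted p = 0.00542). Without shZDHHC15 replicate 1 it was -0.31, with an adjusted p of 0.0935. Processed pseudogene copies of CD24 exist, and reads could be split among them. Of 3230 stretches of 50 bases in CD24 transcripts, 117 (3.62%) were shared with CD24P4 and 3 (0.0929%) with CD24P2.

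The ratio of CD44 to CD24 within a sample does not depend on library scaling. Per gene length it was 0.179 and 0.167 in the shCON samples and 0.219 and 0.235 in the shZDHHC15 samples, so CD24 stayed the more abundant transcript in every sample. The ratio was 1.31-fold higher in shZDHHC15 cells (0.39 on the log2 scale), with no overlap between groups. The exact permutation test gave the smallest p that 2 against 2 samples allow (two-sided p = 0.333). Counts per gene do not separate the CD44 splice forms.

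**Figure D4:**
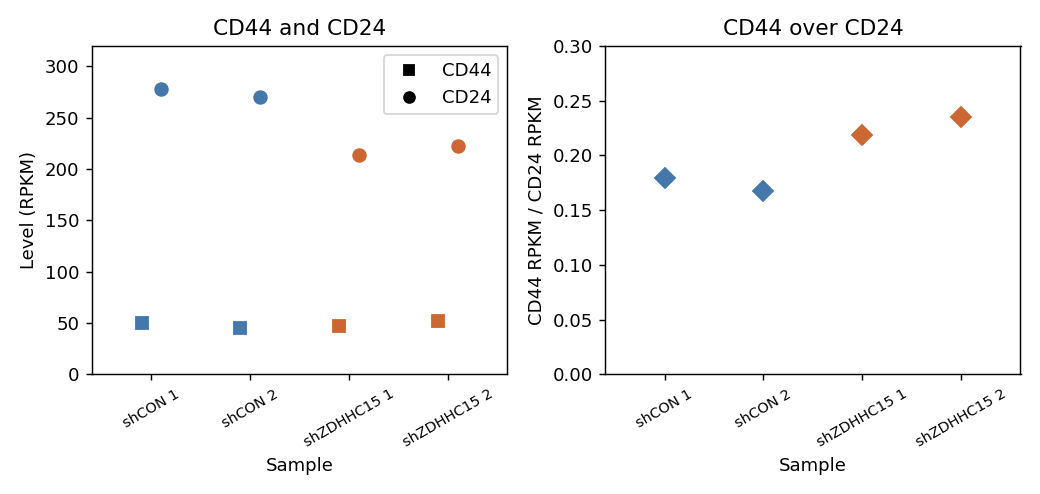
Left, RPKM of CD44 (squares) and CD24 (circles) in each sample, with shCON in blue and shZDHHC15 in orange. Right, the ratio of both levels, which is 0.167 to 0.179 in shCON and 0.219 to 0.235 in shZDHHC15 samples.

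Genes that act with CD44 and CD24 were described through a list of 17 splicing factors, hyaluronan enzymes, ligands and membrane linkers. Of the 12 tested, 2 were higher and 5 lower (58.3% called, beside 42.0% of all tested genes), with a median log2 fold change of -0.16. EZR (ezrin) and RDX (radixin), which tie CD44 to the actin cortex, fell by 1.03 and 1.02 on the log2 scale (adjusted p = 4.16e-07 and 1.10e-05), EZR from 13283 and 13030 to 6631 and 7456 counts. MSN (moesin), the third linker of this family, was higher by 0.25 (adjusted p = 0.0257), which 5 of the 12 alternatives did not call. HAS3, a hyaluronan synthase whose exons overlap CHTF8, rose from 674 and 690 to 1566 and 1798 counts (log2 fold change 1.17, adjusted p = 8.79e-07).

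ESRP2, a regulator of epithelial splicing that acts on CD44, was lower by a log2 fold change of -0.37 (adjusted p = 0.00676), and its exons overlap NFATC3. NF2 (merlin) had -0.33 (adjusted p = 0.0134). Without shZDHHC15 replicate 1 neither was called (adjusted p = 0.108 for ESRP2 and 0.121 for NF2), and NF2 was not called without shZDHHC15 replicate 2 either (0.0622). ESRP1, the other ESRP gene of the list, was not called (log2 fold change 0.18, adjusted p = 0.158). Its mean level was 227 CPM in shCON and 258 CPM in shZDHHC15 samples. The hyaluronidase HYAL2 had -0.28 (adjusted p = 0.0499), which 8 of the 12 alternatives did not call. Without shZDHHC15 replicate 1 the list held 1 higher and 2 lower genes, and without shZDHHC15 replicate 2 it held 1 and 3. Without shCON replicate 1 it held 1 higher and 6 lower genes.

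PROM1 and SOX2 rose from a very low level. PROM1 (ENSG00000007062, chromosome 4, 15963076 to 16084378), the pentaspan membrane protein CD133, had 22 and 12 counts in shCON and 88 and 64 in shZDHHC15 samples. All shZDHHC15 values were above the shCON values, with a log2 fold change of 2.03 with an SE of 0.352 and an adjusted p of 0.000335, a 4.09-fold rise with a 95% interval of 2.43 to 6.88. FGFBP2, which overlaps 166 of its exon bases, had 0 counts in every sample.

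SOX2 (ENSG00000181449, chromosome 3, 181711924 to 181714436), a core pluripotency factor, had 6 and 3 counts in shCON and 57 and 49 in shZDHHC15 samples. Its log2 fold change was 3.40 with an SE of 0.465 and an adjusted p of 4.32e-05. This is a 10.6-fold difference. The 95% interval of the fold ran from 5.31 to 21.0, and the shCON counts are close to the limit that a count of 0 allows. SOX2-OT, the long noncoding gene around SOX2, had at most 1 count in any sample, and no annotated exon of another gene overlaps SOX2.

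SOX9 and KLF4, the 2 abundant transcription factors of the group, fell. SOX9 (ENSG00000125398, chromosome 17, 72121020 to 72126420), a factor of mammary progenitors, had 4865 and 4520 counts in shCON and 3888 and 4042 in shZDHHC15 samples. The groups did not overlap, and the level went from 267 ± 0.783 to 207 ± 2.07 CPM (SD, n = 2), with a log2 fold change of -0.37 with an SE of 0.0876 and an adjusted p of 0.00369. KLF4 (ENSG00000136826, chromosome 9, 107484852 to 107490482), a reprogramming factor that also acts in epithelial differentiation, had 1440 and 1335 counts in shCON and 840 and 1026 in shZDHHC15 samples. Its level fell from 78.9 ± 0.111 to 48.6 ± 5.05 CPM (SD, n = 2), with a log2 fold change of -0.70 with an SE of 0.108 and an adjusted p of 0.000122. No exon of another gene overlaps SOX9 or KLF4.

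Other stem-like markers were as mixed as the members. Of 30 further genes, 20 were tested, and 5 were higher and 6 lower (55.0% called, beside 42.0% of all tested genes), with a median log2 fold change of 0.08. MYC fell from 11619 and 11535 to 5996 and 7602 counts (log2 fold change -0.90, adjusted p = 6.19e-06), and SNAI2, the mammary stem and mesenchymal factor SLUG, from 863 and 829 to 410 and 563 counts (log2 fold change -0.93, adjusted p = 5.73e-05). The drug efflux pump gene ABCG2 was lower by a log2 fold change of -0.78 (adjusted p = 0.00886) and the tetraspanin gene CD9 by -0.40 (adjusted p = 0.00363). Both calls were lost without shZDHHC15 replicate 1, when 3 genes of the list were lower, and that of ABCG2 also in the DESeq2 Wald test (adjusted p = 0.0568).

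TP63, the basal cell factor, rose from 802 and 665 to 1265 and 1176 counts (log2 fold change 0.61, adjusted p = 0.000532), and PROCR, a marker of mammary stem cells, was higher by 0.58 (adjusted p = 0.0333), which 5 of 12 alternatives did not call. The receptor tyrosine kinase gene KIT had 2 and 1 counts in shCON and 18 and 11 in shZDHHC15 samples, a ratio of 8.87 (95% counting interval 2.75 to 45.5). NES (nestin) had 3 and 1 against 10 and 12 counts, a ratio of 5.05 (1.71 to 20.1). KIT and NES entered the test only through their counts in shZDHHC15 cells, so their part in the 5 higher genes is a description. NES was not called with no filter (adjusted p = 0.0584), without shCON replicate 1 (0.0625) or without shCON replicate 2 (0.204), and KIT not in the DESeq2 Wald test (0.0621). The number of higher genes was 2 without shZDHHC15 replicate 1 and 2 without shZDHHC15 replicate 2. The remaining called genes were NOTCH1 (higher by 0.33), EPCAM (-0.35) and SOX4 (-0.32). The call of NOTCH1 was lost with no filter (adjusted p = 0.0518), without shZDHHC15 replicate 1 (0.0505) and without shZDHHC15 replicate 2 (0.125), that of EPCAM without shZDHHC15 replicate 1 (0.0720) and that of SOX4 without shZDHHC15 replicate 2 (0.155). NANOG and LIN28B had 0 counts in every sample, and LGR5 at most 2.

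Most tested genes of a retinoid list, which make, carry, sense or break down the product of the ALDH1A enzymes, were higher. Of 26 listed genes 20 were tested, and 13 of these were called higher, where 21.7% of all tested genes were. Only 1 was called lower, so that 70.0% of the list was called, beside 42.0% of all tested genes. Its median change was 0.62 on the log2 scale, against 0.02 for all genes. Because the list was chosen with earlier results of these data known, these comparisons describe the list and do not test retinoid genes. CYP26A1, a cytochrome that inactivates retinoic acid, rose from 13 and 19 to 149 and 91 counts (log2 fold change 2.78, standard error 0.368, adjusted p = 3.21e-05). DHRS9, a short chain dehydrogenase that oxidises retinol, rose from 55 and 38 to 528 and 444 counts (log2 fold change 3.26, standard error 0.204, adjusted p = 1.29e-08).

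Genes named for their response to retinoids rose as well. RARRES3 went from 94 and 114 to 709 and 501 counts (log2 fold change 2.42, adjusted p = 3.88e-07). RARRES1, whose exons overlap MFSD1 and the antisense gene AC080013.1, went from 2154 and 1858 to 5533 and 4670 counts (log2 fold change 1.23, adjusted p = 6.88e-07), and MFSD1 also had more counts in shZDHHC15 samples (1436 and 1404 against 818 and 728). In each of these 4 genes both shZDHHC15 samples were above both shCON samples. They were named as the largest called rises of the list, so this adds nothing to their calls.

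The other 9 higher genes lay between 0.47 and 1.21 on the log2 scale and included the retinol uptake receptor STRA6, the second inactivating cytochrome CYP26B1, the carrier CRABP2, the receptors RARA and RXRA, the corepressor NRIP1 and the retinol and retinaldehyde converting enzymes RDH10, RDH11 and DHRS3. RETSAT, which saturates retinol, was the lower gene (log2 fold change -0.37, adjusted p = 0.0119), and the call was lost without shZDHHC15 replicate 1 (adjusted p = 0.107). RARB, a receptor gene that retinoic acid is known to induce, had 18 and 26 counts in shCON and 19 and 23 in shZDHHC15 samples (log2 fold change -0.19, standard error 0.397, adjusted p = 0.733). Without shCON replicate 1, the list held 2 lower genes.

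**Figure D5:**
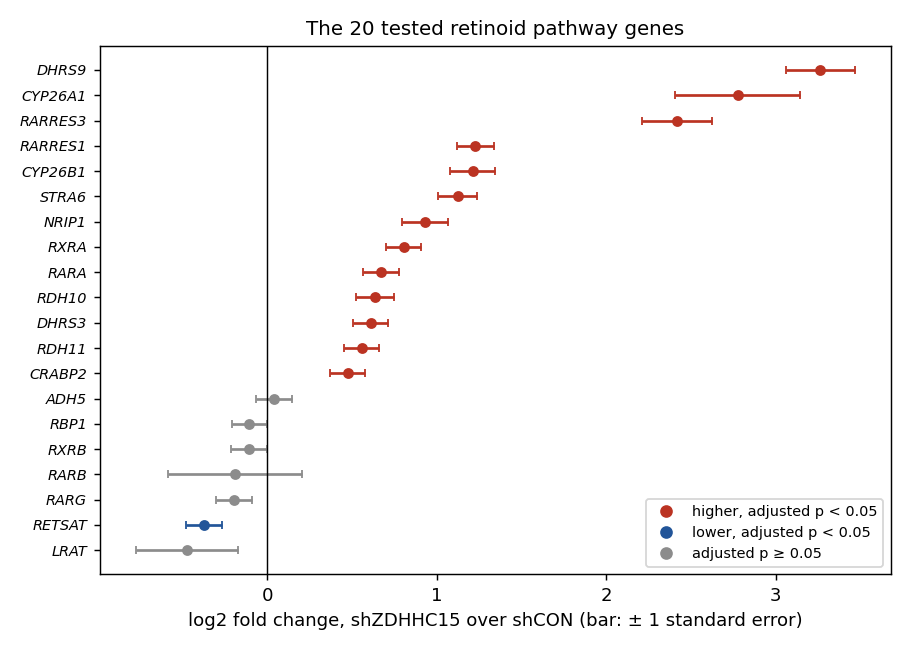
Log2 fold change (shZDHHC15 over shCON) with 1 standard error to each side for the 20 tested retinoid pathway genes, in red for higher and blue for lower genes with an adjusted p below 0.05 and grey for the rest. DHRS9, CYP26A1 and RARRES3 lie at 2.42 or above and RETSAT is the one blue point.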

How the data were processed

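RNA of HCC1954 cells was sequenced by the authors from 4 samples, with NEBNext Ultra libraries of total RNA. The authors deposited raw counts of reads per gene with gene positions, lengths and biotypes. The submitters' processing notes name HISAT2, StringTie, SAMtools and hg38, and how strand was treated is not given in the sources used here. Of 58735 genes, 58724 matched GENCODE release 29 in start, end and symbol. All 4 sample columns were used, and 0 others held samples.

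Genes passing filterByExpr (15817) were fitted with edgeR 4.0.16 (R 4.3.3, limma 3.58.1), with TMM factors of 0.962 to 1.03, glmQLFit and glmQLFTest, and Benjamini-Hochberg adjustment over all tested genes. The limit was an adjusted p of 0.05. Standard errors (SE) were the log2 fold change over the root of F. RPKM is the TMM-scaled CPM divided by the deposited gene length, which can exceed that of any transcript. In simulated counts for 15817 genes with 200 changed by 1.5 on the log2 scale, this fit recovered 84.5% of them with 5.06% false calls. In the data 42.0% of genes were called, 11.3% with a log2 fold change beyond 1, so these rates may not carry over. Samples of one group differed by more than counting noise, with a chi-square per degree of freedom of 8.32 (shCON) and 6.79 (shZDHHC15). Alternatives were other scaling factors, the DESeq2 1.42.0 Wald test, other filters, the legacy dispersion, a replicate block and leaving out each sample.

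The members and gene lists were chosen with earlier results of these data known, so their shares beside all tested genes are descriptions. Every member is named, and of each list the called genes averaging 10 or more counts in one group, or the 4 largest rises and 4 largest falls where these are more than 8. The others named were singled out afterwards. Exon overlaps were taken from GENCODE 29 and promoter windows from RefSeq, with Python 3.11.15.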

Additional observations from a re-analysis of the deposited data

How the results depend on the processing

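The directions of ALDH1A1, ALDH1A3, ALDH3B1, CD24, PROM1, SOX2, SOX9 and KLF4 held under each of the 12 alternatives that tested them, and their calls held except that of CD24 without shZDHHC15 replicate 1. SOX2 and ALDH1A1 could not be tested with at least 10 counts in every sample, where 2 members were higher. CD44 turned to -0.020 without shCON replicate 2 and to -0.028 without shZDHHC15 replicate 2, neither of them called, and ranged from -0.03 to 0.14 on the log2 scale with samples left out in turn. With a sample left out, 1 group has 1 sample, which is assumed to vary like the other group. Then 2 to 4 other aldehyde dehydrogenase genes were higher and 1 to 2 lower, 13 retinoid genes were higher and 0 to 2 lower, 2 to 4 other stem-like genes were higher and 3 to 7 lower, and 1 to 2 of the CD44 and CD24 partners were higher and 2 to 6 lower. The number of other stem-like genes called higher was 2 with the DESeq2 Wald test, 2 with no filter on low counts and 3 with at least 10 counts in every sample. The partners had 1 higher gene with upper-quartile factors and 1 with no filter, when 2282 genes were higher overall. The cause was not tested. The replicate numbers are no known pairing (correlation of deviations 0.0344 over 2 pairs), and with the number as a block 4 members were higher, 4 lower, and 3710 genes higher and 3492 lower overall. ALDH3A1 has no ratio without shCON replicate 1, since the other shCON sample is at 0, and without a filter it was not called (log2 fold change 1.78, adjusted p = 0.352). Depth limits ALDH3A1, KIT, NES and the shCON levels of SOX2 and ALDH1A1.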

Other observations

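Profiles most like those of ALDH1A3 and CD24 over the 4 samples were looked for among 10458 genes coding for protein and averaging 100 or more counts in one group, by the distance between centred log2 CPM values. The nearest to ALDH1A3 were AAAS, GEMIN6 and MRPL1 (distances 0.0224, 0.0236 and 0.0296), with log2 fold changes of -0.75, -0.72 and -0.74. The nearest to CD24 were CARS, TAF9 and ATG13 (0.0113, 0.0154 and 0.0222), with -0.33, -0.35 and -0.33. With 4 samples in 2 groups, such closeness reflects the size of the group difference and the order of the samples and nothing finer.

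Of the marker genes used to check the cell line, PECAM1, an endothelial and leukocyte adhesion gene, had 75 and 56 counts in shCON and 666 and 405 in shZDHHC15 samples (log2 fold change 2.91, standard error 0.256, adjusted p = 5.51e-07), while VWF had at most 7 counts in any sample. ESR1, the estrogen receptor gene, had 161 and 103 counts in shCON and 308 and 305 in shZDHHC15 samples (log2 fold change 1.09, adjusted p = 0.000214), with PGR at no more than 1 count. KRT8, a luminal keratin gene, fell from 105283 and 106976 to 34507 and 40916 counts (log2 fold change -1.62, adjusted p = 4.89e-09). KRT19, another keratin gene of this check, rose from 343 and 339 to 503 and 506 counts. The endothelial marker KDR fell from 159 and 121 to 108 and 87 counts. These genes were singled out after their values were seen.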
